A study of Mus musculus with 4 samples.

Results

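Kank1 to Kank4 and Afap1, Afap1l1 and Afap1l2 are the genes of a pair of mouse adaptor families that act at the actin cortex. They were taken from the deposited table of genes by symbol, and all 7 were among its 17915 coding genes. The families were chosen by the high levels of Kank1 and Afap1l2 in tdTomato+ libraries, so the comparison of tdTomato+ with ZsGreen+ cells had already been used to select them. Values from that comparison are therefore given for these 7 genes as a description. Where the test over all genes called a member, that call is not evidence about the member.

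The libraries came from sorted mouse lung endothelial cells. Both groups shared the genotype Cdh5-CreER;aSMA-LSL-Dre;NR1, tamoxifen given 5 times, and transverse aortic constriction (TAC), a surgical narrowing of the aorta, 6 weeks earlier. Cdh5-CreER is a tamoxifen-inducible recombinase under the VE-cadherin gene, so the reporter follows cells that used this endothelial promoter. Endothelial cells were marked with ZsGreen. A cell was marked with tdTomato if its alpha smooth muscle actin (aSMA) locus was active, however briefly, after the tamoxifen-induced recombinase had acted. Each marked population gave 2 libraries, all from operated mice, and the labels give neither the age of the animals nor how many were pooled. The labels call the libraries biological replicates but do not say that they came from separate mice, so any p-value measures the spread between these libraries only.

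KANK proteins carry an N-terminal KN motif that binds talin, and ankyrin repeats at the C-terminal end. They gather at the rim of focal adhesions, where they link the adhesion to liprins, the kinesin KIF21A and cortical microtubule anchors, and they are known to restrain stress fibres. AFAP proteins carry PH domains and associate with actin filaments. AFAP1 is an activator and AFAP1L2 an adaptor of the kinase Src. In the deposited annotation columns the KN motif was carried by 4 genes, all of them Kank genes, and the PH domain by 172, among them the 3 Afap genes.

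Kank3 and Afap1l1 were by far the most abundant members in every library. Levels of different genes are compared here as TPM, a level scaled to transcript length and to the library. Kank3, a KANK protein known from vascular endothelium, stood at 336 and 395 TPM in tdTomato+ replicates 1 and 2 and at 356 and 455 TPM in ZsGreen+ replicates 1 and 2. Its mean level lay above that of 97.5% of the genes in the table. Afap1l1, an AFAP relative that binds cortactin and is found at podosomes, stood at 179 and 158 TPM in tdTomato+ cells and at 220 and 262 TPM in ZsGreen+ cells, with a mean above that of 95.3% of genes. Neither the range of Kank3 nor that of Afap1l1 met that of the next gene down.

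The other 5 members lay between 2.31 and 23.3 TPM, and their order differed between the groups. In both ZsGreen+ libraries the order from high to low was Afap1, Kank2, Kank1, Afap1l2 and Kank4, and no neighbours in it had overlapping ranges over the ZsGreen+ libraries. Kank1 and Afap1l2 lay close there, at 3.68 and 3.91 TPM against 3.47 and 3.42 TPM. In tdTomato+ cells Afap1l2 had the highest mean of these 5 genes, at 19 ± 6.09 TPM (SD, n = 2). Kank1 followed at 17.5 ± 2.37 TPM, Kank2 at 15.3 ± 1.41 TPM and Afap1 at 13.9 ± 1.69 TPM, and the ranges of each of these neighbours overlapped. Kank4 was the lowest member in both groups, at 4.04 ± 0.30 TPM in tdTomato+ cells and 2.81 ± 0.71 TPM in ZsGreen+ cells.

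**Figure D1:**
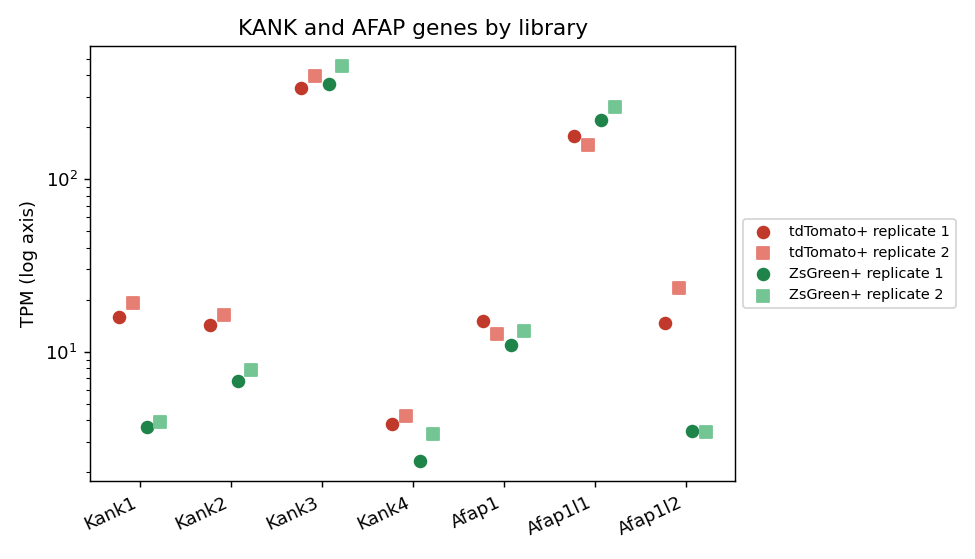
TPM of each KANK and AFAP gene in each library, on a log axis, with 1 point per library. Kank3 and Afap1l1 lie above 100 TPM in all libraries, and the tdTomato+ points of Kank1, Kank2 and Afap1l2 lie above their ZsGreen+ points.

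Kank1 and Afap1l2, the genes that chose the families, were higher in tdTomato+ cells by similar factors. Between libraries the same gene is compared as CPM, the count relative to the TMM-scaled size of its library. Kank1, which is known to bind talin and to restrain stress fibres, stood at 47.8 and 60.7 CPM in the tdTomato+ libraries and at 13.7 and 12.4 CPM in the ZsGreen+ libraries. Every tdTomato+ library was thus above every ZsGreen+ library, with ratios between single libraries from 3.50 to 4.89. The log2 fold change, tdTomato+ over ZsGreen+, was 2.06 (SE 0.22).

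Afap1l2, also called XB130, an adaptor of Src and of the PI3-kinase subunit p85, stood at 33.4 and 54.9 CPM in the tdTomato+ libraries and at 9.74 and 8.05 CPM in the ZsGreen+ libraries. The groups did not overlap, but tdTomato+ replicate 2 was well above replicate 1, and the ratios between single libraries ran from 3.43 to 6.82. The log2 fold change was 2.31 (SE 0.30), and it was 1.93 without tdTomato+ replicate 2 and 2.62 without tdTomato+ replicate 1. Acta2, the gene whose locus the reporter reads, showed the same order of libraries, at 303.9 and 527.5 CPM against 87.6 and 82.9 CPM. Kank1 and Kank2 had that order too, so it was not particular to Afap1l2.

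The promoters of Kank1 and Afap1l2, the pair by which the families were chosen, are printed beside that of Kank3. Kank3 was the most abundant member and differed little between groups. Each run is the 250 bases before a start site in RefSeq for GRCm38.p6, read 5′ to 3′ on the strand of the gene. Kank1 is on the plus strand at chr19:25236725-25236974, Afap1l2 on the minus strand at chr19:57008576-57008825, and Kank3 on the plus strand at chr17:33810273-33810522. Capitals mark any of 5 searched motifs on either strand, which may overlap: the CArG box of serum response factor, the TEAD core GGAATG, the E-box CANNTG, the GC box GGGCGG and the Smad element CAGAC.
Kank1: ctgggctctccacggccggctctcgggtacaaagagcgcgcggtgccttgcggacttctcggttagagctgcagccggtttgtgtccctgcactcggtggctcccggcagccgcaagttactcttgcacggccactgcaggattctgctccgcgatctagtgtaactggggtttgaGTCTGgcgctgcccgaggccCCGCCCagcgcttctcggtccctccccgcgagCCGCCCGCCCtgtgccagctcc
Afap1l2: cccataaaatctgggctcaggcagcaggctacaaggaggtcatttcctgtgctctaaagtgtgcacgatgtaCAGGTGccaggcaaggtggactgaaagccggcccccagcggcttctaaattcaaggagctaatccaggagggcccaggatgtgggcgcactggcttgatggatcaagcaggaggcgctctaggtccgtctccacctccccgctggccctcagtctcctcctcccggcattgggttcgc
Kank3: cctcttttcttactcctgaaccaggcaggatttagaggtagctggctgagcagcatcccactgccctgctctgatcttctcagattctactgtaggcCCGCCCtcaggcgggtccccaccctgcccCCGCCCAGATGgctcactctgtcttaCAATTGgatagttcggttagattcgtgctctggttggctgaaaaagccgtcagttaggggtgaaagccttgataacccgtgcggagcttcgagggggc

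The Kank1 window held 3 GC boxes, starting 54, 22 and 18 bases before the start site, and 1 Smad element at 74 bases. The last 2 of these GC boxes share letters. The Afap1l2 window held 1 E-box, 178 bases before its start, and none of the other motifs. The Kank3 window held 2 E-boxes, at 119 and 98 bases, and 2 GC boxes, at 153 and 124 bases, and its first E-box shares letters with a GC box. No motif of the 5 was thus found in both the Kank1 and the Afap1l2 window. Of 32851 windows of the same length in the RefSeq table, 66.2% held an E-box, 42.2% the Smad element, 32.7% a GC box, 12.6% the TEAD core and 1.47% a CArG box.

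Among the 6 members with a window read here, the CArG box and the TEAD core were found in none. Afap1 had 4 GC boxes and 1 E-box, Kank2 had 2 GC boxes and 1 E-box, and Kank4 had 1 E-box. GC content was 67.6% in the Kank1 window and 59.6% in that of Afap1l2. It was 74% for Kank2, 74.8% for Kank4, 59.6% for Afap1 and 56.4% for Kank3, so all 6 lay above the median of 52.4% over all windows. Kank1 and Afap1l2 have 17 and 9 transcripts in the deposited table, and both starts used here lie inside the RefSeq spans of the genes, so each window belongs to 1 of several starts. Which start the reads came from was not tested.

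Both genes lie on chromosome 19 in GRCm38, Kank1 (NCBI Gene 107351) at 25236732 to 25434498 and Afap1l2 (NCBI Gene 226250) at 56912354 to 57028589. The other members lie on chromosomes 4 (Kank4), 5 (Afap1), 9 (Kank2), 17 (Kank3) and 18 (Afap1l1).

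Kank2 and Kank4 were also higher in tdTomato+ cells, by smaller factors. Kank2, a talin-binding KANK protein known from mesenchymal cells, stood at 41.1 and 49.2 CPM in the tdTomato+ libraries and at 24 and 23.6 CPM in the ZsGreen+ libraries. The groups did not overlap and the ZsGreen+ libraries were nearly equal. The log2 fold change was 0.92 (SE 0.20). Kank4, the least abundant KANK gene here, had 11.5 and 13 CPM against 8.54 and 10.1 CPM, with a log2 fold change of 0.39 (SE 0.28). Its groups did not overlap, but the gap from the highest ZsGreen+ to the lowest tdTomato+ library was a ratio of 1.13. Kank4 also rested on the fewest reads: its lowest library held 135 counts, with an exact 95% Poisson interval of 113 to 160, which covers counting error only. In the ZsGreen+ libraries Afap1l2 rested on similarly few, with 154 and 147 counts against 135 and 185 for Kank4.

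Kank3 and Afap1l1, the abundant members, were lower in tdTomato+ cells on the CPM scale. Afap1l1 stood at 353 and 328 CPM in the tdTomato+ libraries and at 538 and 543 CPM in the ZsGreen+ libraries. The groups lay well apart compared with the gaps within them, and the log2 fold change was -0.67 (SE 0.18). Kank3 stood at 370.2 and 444 CPM against 448 and 496 CPM, with a log2 fold change of -0.21 (SE 0.20). The highest tdTomato+ library of Kank3 lay within 1% of the lowest ZsGreen+ library, at a ratio of 0.991, and on the TPM scale above the groups overlapped.

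Afap1, the first described AFAP protein, an actin cross-linker and Src activator, stood at 59.6 and 52.7 CPM in the tdTomato+ libraries and 53.6 and 54.8 CPM in the ZsGreen+ libraries. Both ZsGreen+ values fell between the tdTomato+ values. The log2 fold change was 0.05 (SE 0.18), and it was -0.04 without tdTomato+ replicate 1.

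**Figure D2:**
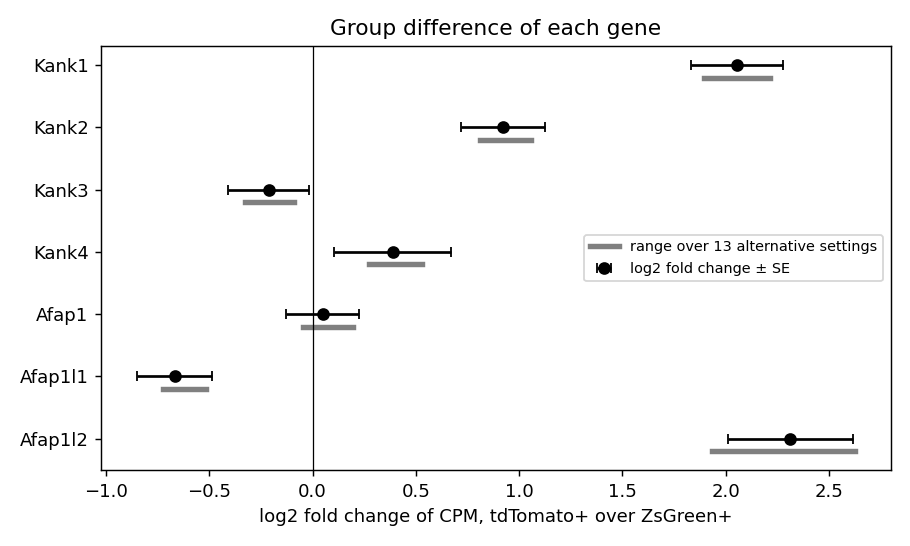
Log2 fold change of CPM, tdTomato+ over ZsGreen+, for each gene with its SE (points and bars) and its range over 13 alternative settings, 3 of them on TPM (grey lines). The ranges of Kank1 and Afap1l2 stay above 1.8, and that of Afap1 crosses 0.

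In all, 4 of the 7 members were higher and 2 lower in tdTomato+ cells with no overlap between groups, and 1 overlapped. Among the 13177 genes that passed the filter on low counts, as all 7 members did, groups did not overlap for 38.1%, being higher for 19.9% and lower for 18.2%. edgeR called 40 of the 13177 genes at an adjusted p under 0.05, which is 0.304% (0.167% higher and 0.137% lower in tdTomato+ cells), and 2 of the members, Kank1 and Afap1l2, were among the higher ones. As the same contrast chose the families, nothing is read from these counts of members. The same applies to whether Kank1 or Afap1l2 was called with a library left out, given below. The median log2 fold change was 0.39 over the 7 members and -0.01 over all genes tested. Leaving out tdTomato+ replicate 1 or 2 changed the 40 calls to 17 (11 higher) or 4 (0 higher), and leaving out ZsGreen+ replicate 1 or 2 changed them to 304 (203 higher) or 26 (10 higher). Afap1l2 remained called without tdTomato+ replicate 1 and without ZsGreen+ replicate 1, and Kank1 only without ZsGreen+ replicate 1, so neither was called without tdTomato+ replicate 2 or ZsGreen+ replicate 2.

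The make-up of each family shifted while its dominant member stayed the same. Kank3 made up 90.8% and 90.9% of the summed KANK TPM in tdTomato+ cells and 96.5% and 96.8% in ZsGreen+ cells. Kank1 made up 4.28% and 4.41% of it in tdTomato+ cells and 0.997% and 0.833% in ZsGreen+ cells. The share of Kank2 was 3.87% and 3.76% against 1.84% and 1.67%. The summed KANK level itself overlapped between the groups, at 370.4 and 435 TPM in tdTomato+ and 369 and 470 TPM in ZsGreen+ cells.

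In the AFAP family Afap1l1 made up 85.7% and 81.4% of the summed TPM in tdTomato+ cells and 93.8% and 94% in ZsGreen+ cells. Afap1l2 made up 7.05% and 12% against 1.48% and 1.23%. The share of Afap1 was 7.25% and 6.55% against 4.68% and 4.75%, although its own CPM overlapped between groups. The summed AFAP level was lower in tdTomato+ cells, at 208 and 194 TPM against 235 and 279 TPM. These shares are computed from the same values as the fold changes and are no separate evidence.

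**Figure D3:**
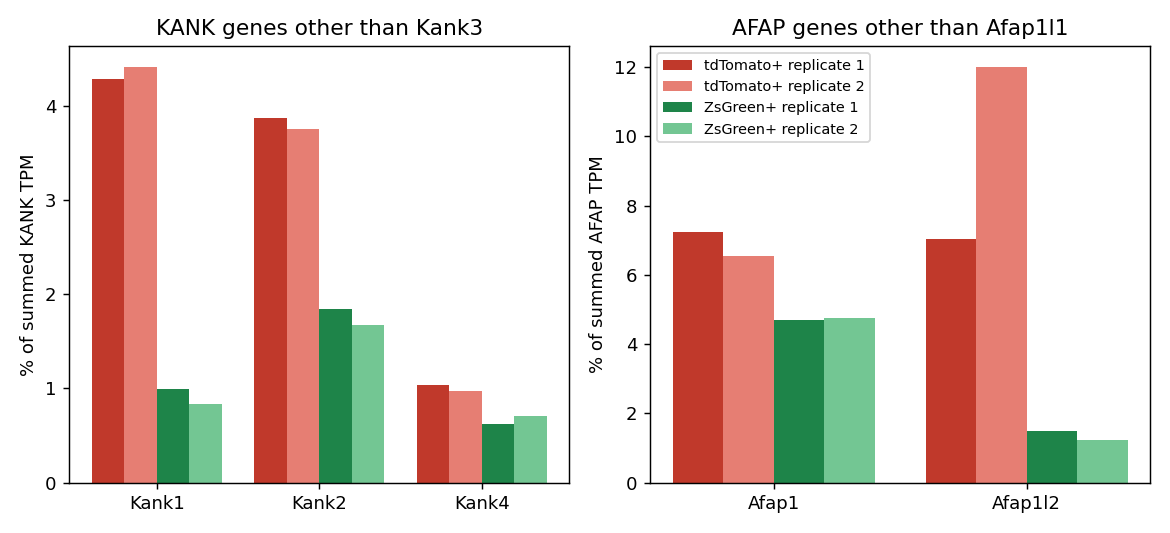
Share of the summed KANK TPM (left) and summed AFAP TPM (right) held by the members other than Kank3 and Afap1l1, as 1 bar per library. Kank1 holds 4.28% and 4.41% in tdTomato+ against under 1% in ZsGreen+ libraries, and Afap1l2 reaches 12% in tdTomato+ replicate 2.

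The genes whose pattern over the 4 libraries was most like that of Kank1 were Tmem255b, Sulf1, Nuak1, Slc45a4 and Ccdc80. Likeness was the Euclidean distance between log2 CPM profiles after each gene's mean was subtracted, over 10359 other genes whose mean reached 5 CPM. Tmem255b, a membrane protein, was at a distance of 0.133, with 25.7 and 36.5 CPM in the tdTomato+ libraries and 7.85 and 6.68 CPM in the ZsGreen+ libraries. Sulf1, a heparan sulfate 6-O-endosulfatase, was at 0.177, with 80.8 and 88.3 CPM against 20.8 and 20.6 CPM. Nuak1, an AMPK-related kinase, was at 0.201.

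For Afap1l2 the likest genes were Rbp7, Acta2, Fads2, Tmem255b and Fabp4. Rbp7, a retinol-binding protein, was at a distance of 0.0959, with 14 and 23.4 CPM in the tdTomato+ libraries and 4.05 and 3.62 CPM in the ZsGreen+ libraries. Acta2 was next at 0.150. Fads2, a fatty acid desaturase, was at 0.213, and Fabp4, a fatty acid carrier, at 0.253. Kank1 and Afap1l2 were at a distance of 0.356 from each other, which made Afap1l2 the 14th likest gene of Kank1 and Kank1 the 9th likest gene of Afap1l2. With 4 libraries the profiles rest on the difference between groups and the gap between the tdTomato+ libraries, and these likenesses are a description only.

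The known partners of KANK proteins did not pass the test. Of 14 KANK partner genes tested, edgeR's quasi-likelihood test called none, with the smallest adjusted p at 0.637. Their median log2 fold change was 0.01, from -0.42 to 0.59, against -0.01 over all genes tested. Talin 1, Tln1, the KANK ligand in integrin adhesions, stood at 271 and 280 CPM in tdTomato+ and 327 and 314 CPM in the ZsGreen+ libraries (log2 fold change -0.22, SE 0.18, edgeR adjusted p = 0.835). Tln2, its less abundant paralogue, had 7.43 and 5.78 CPM against 3.92 and 4.82 CPM (0.59, SE 0.37, edgeR adjusted p = 0.779). The dynein light chain Dynll1 differed by -0.42 (SE 0.20) on the log2 scale and Clasp1, a microtubule plus-end protein, by 0.20 (SE 0.22). Ppfibp1, the liprin that binds KANK1, is named for that role and not for its p, and stood at 146.7 and 143.6 CPM in the tdTomato+ libraries and at 129.5 and 178 CPM in the ZsGreen+ libraries. Kif21a, the kinesin that KANK1 recruits, was low and variable, with 4.07 and 7.25 CPM against 1.96 and 8.82 CPM. Both overlapped between groups.

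Of 9 AFAP partner genes none was called either, with a median log2 fold change of 0.00. Src, the kinase that AFAP1 binds and activates, had the smallest p, at 8.25 and 10.6 CPM in the tdTomato+ libraries against 2.97 and 4.98 CPM in the ZsGreen+ libraries. The groups of Src did not overlap, and its log2 fold change of 1.24 (SE 0.40) had an edgeR adjusted p of 0.388. Prkca, the protein kinase C isoform that regulates AFAP1, had 3.96 and 3.73 CPM against 2.66 and 2.30 CPM (0.63, SE 0.44, edgeR adjusted p = 0.808). Pik3r2, a regulatory subunit of PI3-kinase, had the value 0.24 (SE 0.27) on the log2 scale, and Csk, the kinase that inhibits Src, -0.14 (SE 0.16).

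Of 16 other genes that link actin to the cell cortex none was called, with a median log2 fold change of 0.07. Sptan1, alpha spectrin, stood at 294 and 281 CPM in the tdTomato+ libraries and 390 and 365 CPM in the ZsGreen+ libraries (-0.39, SE 0.18, edgeR adjusted p = 0.610). Its partner Sptbn1 had a log2 fold change of -0.32 (SE 0.19). Palladin, Palld, an actin cross-linker, had 68.2 and 109.8 CPM against 42 and 69.1 CPM (0.68, SE 0.31, edgeR adjusted p = 0.626), and its groups overlapped. Supervillin, Svil, had a log2 fold change of 0.35 (SE 0.19).

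Over the 39 partner genes together, 1 had an unadjusted edgeR p under 0.05, a mark that 8.77% of all genes tested reached. Groups did not overlap for 12, which is 30.8% against the background of 38.1%. The direction was higher for 7 and lower for 5 of them. DESeq2 also called none of the 39. A missed call does not show equal levels.

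**Figure D4:**
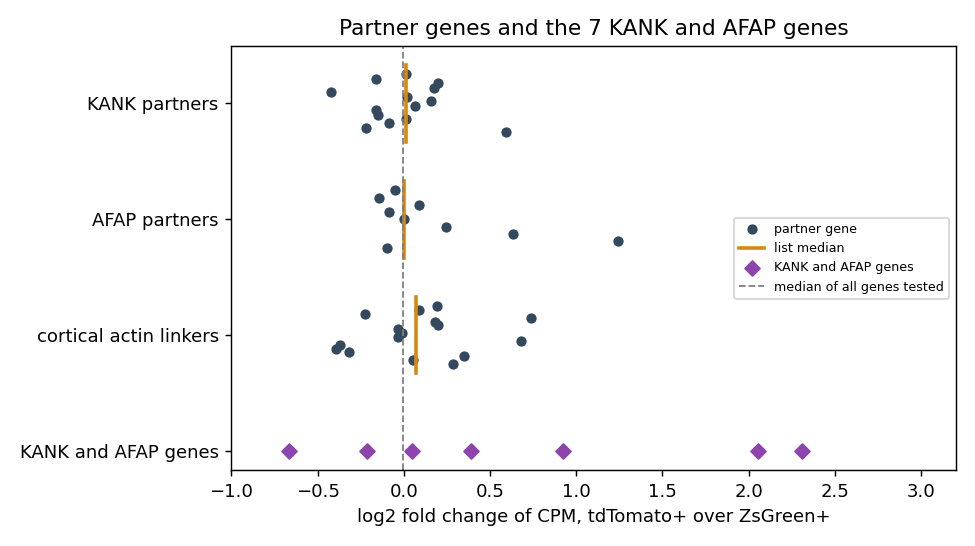
Log2 fold change of CPM, tdTomato+ over ZsGreen+, for each of the 39 partner genes by list (dots), with list medians (orange), the 7 KANK and AFAP genes (diamonds) and the median of all genes tested (dashed). Src, at 1.24, is the partner gene farthest to the right, and Kank1 and Afap1l2 lie beyond it.

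Libraries held 17050673 to 18574737 counts. Endothelial markers led by Egfl7, Pecam1 and Cdh5 summed to 10430 and 11018 CPM in the tdTomato+ libraries and 11967 and 10028 CPM in the ZsGreen+ libraries, so the markers of the labelled cell type were abundant in every library and their sums overlapped. Of the 10 markers 2 were higher and 4 lower without overlap, Vwf among the higher and Cldn5, Egfl7 and Pecam1 among the lower ones. None was called by edgeR, with 2 at an unadjusted p under 0.05. These were Vwf, at 2006 and 2961 CPM in tdTomato+ and 947 and 845 CPM in ZsGreen+ libraries, and Cldn5. Cldn5 went the other way, at 407 and 533 CPM against 769 and 915 CPM. In bulk libraries fewer cells of a type and less RNA per cell cannot be told apart.

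Of the marker lists of other cell types, only the fibroblast and mesothelial sums did not overlap between groups, and edgeR called members only of the lymphatic list. The shares of all genes higher or lower without overlap, 19.9% and 18.2%, apply to the counts of markers below. So does the 8.77% of all genes with an unadjusted edgeR p under 0.05. Of the markers tested, 6 of 7 lymphatic, 3 of 11 epithelial and 2 of 10 leukocyte genes had such a p. The same held for 2 of 7 pericyte, 1 of 2 mesothelial and 0 of 7 smooth muscle genes. Fibroblast markers, led by Col1a1, Col3a1 and Pi16, summed to 243 and 447 CPM in the tdTomato+ libraries and 101 and 125 CPM in the ZsGreen+ libraries, and 6 of 10 were higher without overlap, with none called by edgeR and 6 at an unadjusted p under 0.05. Their highest sum was in tdTomato+ replicate 2. That library also held the highest CPM of Kank1, Kank2, Kank4, Afap1l2 and Acta2 and the highest smooth muscle and mesothelial sums. Smooth muscle markers led by Tagln, Smtn and Mylk summed to 1856 and 2380 CPM against 1888 and 1540 CPM, which overlap. Of 7 tested 2 were higher and 1 lower without overlap. Tagln was among the higher ones, at 1336 and 1787 CPM against 1300 and 894 CPM, and Smtn was the lower one. Synpo2, too low to be tested, had 8 and 37 counts in the tdTomato+ and 0 and 1 in the ZsGreen+ libraries. Myh11, their defining myosin, reached at most 7.67 CPM in any library. Pericyte markers, led by Pdgfrb, Postn and Kcnj8, summed to between 9.68 and 13.3 CPM, and these sums overlapped between the groups. Of 7 tested 2 were higher and 3 lower without overlap. Pdgfrb was higher, at 5.12 and 5.67 CPM in tdTomato+ and 2.40 and 2.57 CPM in ZsGreen+ libraries. Kcnj8 was lower, at 0.28 and 0.47 CPM against 1.33 and 3.83 CPM.

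Leukocyte markers led by Lyz2, Cd68 and Marco summed to 4234 and 2188 CPM in the tdTomato+ libraries and 2446 and 527 CPM in the ZsGreen+ libraries, which overlap, and 3 of 10 were higher without overlap. Epithelial markers, led by Sftpc, Scgb1a1 and Sftpb, summed to 436 and 524 CPM against 275 and 529.6 CPM, which overlap, with 6 of 11 higher and 1 lower without overlap. Scgb1a1 alone held 384 CPM of the sum in ZsGreen+ replicate 2, with 17.7 CPM in ZsGreen+ replicate 1 and 47.6 and 54.4 CPM in the tdTomato+ libraries. Mesothelial markers, led by Krt19 and Msln, summed to 17.8 and 30.8 CPM against 14.3 and 11 CPM. The 4 other mesothelial markers were too low to be tested, and all had their highest count in tdTomato+ replicate 2. Upk3b had 36 counts there and 3, 0 and 4 in the other libraries, Lrrn4 18 against 0, 0 and 2, Upk1b 24 against 0, 4 and 4, and Wt1 2 against 0 in each.

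Most lymphatic endothelial markers were lower in tdTomato+ cells, the direction of Afap1l1, while their sums overlapped at 713 and 1005 CPM against 942 and 1231 CPM. Of 7 tested 6 were lower without overlap, and edgeR called 3, Thy1, Mmrn1 and Reln. Thy1, a surface glycoprotein, stood at 7.32 and 9.24 CPM in tdTomato+ and 57.6 and 71.3 CPM in the ZsGreen+ libraries (log2 fold change -2.96, SE 0.24, edgeR adjusted p = 0.0304). Lyve1, the most abundant of the list, held much of each sum, at 503 and 840 CPM against 407 and 593 CPM. It overlapped between groups, with a log2 fold change of 0.42 (SE 0.31). The part of these cell types in the differences of the KANK and AFAP genes was not tested.

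**Figure D5:**
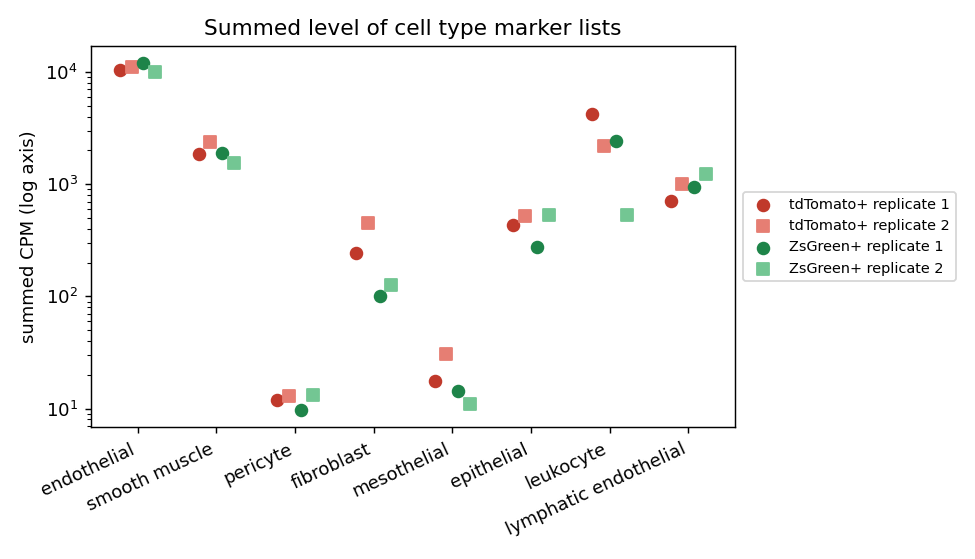
Summed CPM of each cell type marker list by library, on a log axis, with 1 point per library. Fibroblast sums are 243 and 447 CPM in tdTomato+ against 101 and 125 CPM in ZsGreen+ libraries, and mesothelial sums do not overlap either, while the sums of the other 6 lists do.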

How the data were processed

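Per the labels' protocols, under 4 µL of RNA from an RNeasy Micro extraction went into whole-transcriptome amplification, followed by library preparation for MGI sequencers. Amplification of little RNA can add spread, and no molecular identifiers are named. RSEM 1.3.1 and DESeq2 1.4.5 and the builds mm10 and GRCm38 are named, with no role, in the submitters' processing notes. Strand handling and the aligner are not stated in these sources, so reads of antisense genes cannot be told apart. The authors deposited estimated counts, which were rounded for tests, and TPM and FPKM per gene. The deposited normalized counts, a signal scaled by a factor per library, served only as a check of ratios.

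edgeR 4.0.16 under R 4.3.3 compared groups with its two-sided quasi-likelihood test, TMM factors, filterByExpr at a minimum count of 10 and Benjamini-Hochberg adjustment over 13177 genes, calling at 0.05. The SE was obtained by dividing the size of the log2 fold change by the square root of F. The test was also run on counts simulated from the mean levels and spread of these libraries, and its outcome there is not reported here. With 2 against 2 libraries an exact permutation test cannot go below a two-sided p of 0.333, so none was run. Alternatives used DESeq2 1.42.0, limma 3.58.1 on log2 of TPM plus 1 or 0.1, other factors and filters, a replicate block and leaving out each library.

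The members, gene lists and tests were chosen with earlier results of these data known. Named are all members, Acta2, per partner list the 4 genes with the smallest p whose mean reached 1 CPM, per marker list up to 3 genes with the highest mean, and the 5 genes likest to Kank1 and to Afap1l2. Outside this rule, and chosen after their values were seen, are Vwf, Cldn5, Myh11, Synpo2, Upk3b, Lrrn4, Upk1b, Wt1, Thy1, Reln, Ppfibp1, Kif21a and Myof. Gene spans and promoters come from RefSeq for GRCm38.p6; the span of Kank3 in the deposited table mixes scaffolds and was not used. A further list of cytoskeletal genes is not reported here.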

Additional observations from a re-analysis of the deposited data

How the results depend on the processing

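Kank1, Kank2, Kank4 and Afap1l2 stayed higher and Kank3 and Afap1l1 stayed lower in tdTomato+ cells under all 13 alternatives, and Afap1 changed side only without tdTomato+ replicate 1. Log2 fold changes ranged from 1.90 to 2.22 for Kank1, 1.93 to 2.62 for Afap1l2, 0.81 to 1.06 for Kank2, 0.27 to 0.53 for Kank4, -0.33 to -0.09 for Kank3 and -0.72 to -0.51 for Afap1l1. TPM raised the median log2 fold change of all genes to 0.12 or, with a pseudocount of 0.1, 0.13, so Kank2 at 1.06 and Afap1 at 0.20 are to be read against that shift. The number of genes called, 40, was 330 with DESeq2, 128 without a filter on low counts, 61 at 1 CPM or more in every library, 22 with limma on log2(TPM + 0.1), and 4 to 304 when a library was left out. limma on log2(TPM + 1) without a filter called 0, with 1508 genes at an unadjusted p under 0.05. With a replicate block edgeR called 934 genes, and 2 partner genes, Src (1.27, edgeR adjusted p = 0.0130) and Palld (0.68, edgeR adjusted p = 0.0195); deviations of same-numbered libraries had a Pearson correlation of 0.455 across 13177 genes, which are not independent, and no label says that a number marks an animal or day, so the numbers are not taken as pairs. The other alternatives called no partner gene. Order by level held in both ZsGreen+ libraries, and 3 of 7 members kept their place in either tdTomato+ library alone. The cause of these changes was not tested.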

Other observations

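Of the 22 genes that edgeR called higher in tdTomato+ cells, 5 lie on chromosome 19, namely Acta2, Kank1, Afap1l2, Fads2 and Myof, a membrane repair protein named after its value was seen. That chromosome held 449 of the 13177 genes tested. These 5 are 1.11% of the 449, against 0.167% called higher over all chromosomes. The next highest share was on chromosome 8, with 4 of 725 called higher. No gene on chromosome 19 was called lower, and the same held for other chromosomes such as 1, 2 and 3. Groups lay higher without overlap for 20.5% of the genes tested on chromosome 19, against 19.9% over all, and their median log2 fold change was -0.02. Kank1 at 25236732 lies below and Afap1l2 at 56912354 lies above Acta2, which spans 34240336 to 34255585 in GRCm38. Of the 5, Kank1 and Afap1l2 are the genes on which the families were selected, and Acta2 is the gene whose locus the reporter reads. Only Fads2 and Myof remain, so the share of 1.11% is not read as a property of the chromosome. The number called higher on this chromosome was 3 of 11 without tdTomato+ replicate 1, 0 of 0 without tdTomato+ replicate 2, 12 of 203 without ZsGreen+ replicate 1 and 2 of 10 without ZsGreen+ replicate 2. The pattern was noticed in these data and was not tested.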
